A study of Mus musculus with 169 samples.

Results

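The 10 genes described here encode the working parts of signaling by transforming growth factor beta (TGF-beta) and its relative activin: the ligand Tgfb1, the receptors Tgfbr1, Tgfbr2, Acvr1c and Acvr1, the signal carriers Smad2, Smad3 and Smad4, and the inhibitors Smad7 and Ski. They were chosen as every probe of an Agilent gene expression array whose identifier maps to one of these genes, and this gave 16 of the 55681 probes and 10 of the 20145 gene symbols on the array, with 2 probes for each of 6 genes and 1 probe for each of the other 4. All 16 passed the filter on dim probes, which asked for a signal clearly over background on 3 or more arrays. RNA came from microglia, the resident macrophages of the brain, of mice with or without progranulin, a secreted glycoprotein that is also found in lysosomes. KO mice were Grn-/- and WT mice were Grn+/+, both on a C57B/6J background, and the allele is missing from every cell of the animal rather than from microglia alone. Cells were enriched on Percoll gradients and sorted by CD11b, CD45 and Ly6G. The groups were KO at 16 months with 4 arrays, WT at 16 months with 4 arrays, KO at 4 months with 3 arrays and WT at 4 months with 4 arrays. The series, which asks how loss of progranulin changes microglia and synapses, holds 169 samples in all, and the bead arrays of brain regions were not used here.

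TGF-beta is secreted in a latent form and, once released, brings a type II receptor (Tgfbr2) together with a type I receptor (Tgfbr1), which phosphorylates Smad2 and Smad3. These join Smad4, enter the nucleus and change transcription, and Smad7, itself a target gene, and Ski hold the pathway back. Microglia need TGF-beta to keep the expression of their characteristic genes, and activin, nodal and bone morphogenetic proteins (BMPs) use related type I receptors, among them Acvr1c (ALK7) and Acvr1 (ALK2).

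Levels are log2 of a spot's processed signal over the 75th percentile of its array, so 0 is the 75th percentile, and signals under a common floor were set to that floor, at -4.94. The 75th percentile lay between 507 and 1037 signal units on KO arrays at 16 months and between 1010 and 1511 on WT arrays of that age, against 1072 to 1752 on KO arrays and 1306 to 1649 on WT arrays at 4 months. The share of probes well above background was 54.2% to 62.7% on KO arrays and 64.6% to 69.8% on WT arrays at 16 months, and 66.3% to 73.0% on KO arrays and 70.3% to 76.5% on WT arrays at 4 months. No probe was saturated, and the number of arrays limits the precision. WT arrays 1 and 2 at 16 months, and likewise 3 and 4, differed by less than repeat spots of 1 array and were averaged, so the WT group of that age stands for 2 samples. The numbers in the sample titles, read as slide and row, put the 4-month arrays on 1 slide and the 16-month arrays on another. They put KO and WT in different rows. The effects of age and slide therefore cannot be told apart, nor those of genotype and row. The labels do not say that samples came from separate mice, so p-values measure the spread between these samples, which may be technical. At 16 months Grn itself was not well above background on any of 4 KO arrays and averaged 5.04 ± 0.60 in WT microglia (SD, n = 2). At 4 months Grn averaged -2.77 ± 0.66 in KO microglia (SD, n = 3) and 6.25 ± 0.086 in WT microglia (SD, n = 4).

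All 12 microglia markers, Cx3cr1 and Tmem119 among them, were above background on arrays of every group, so genes that define the labelled cell type were present. Their summed level over 12 markers, in multiples of the 75th percentile, was 260 to 651 in KO and 1194 to 1927 in WT samples at 16 months, and 1635 to 2564 in KO and 1673 to 2143 in WT samples at 4 months. Markers of choroid plexus epithelium, the tissue that makes cerebrospinal fluid, were above background on arrays of every group too. The sum over 12 of them was 1337 to 2567 in KO and 475 to 895 in WT samples at 16 months, and 251 to 376 in KO and 14.5 to 155 in WT samples at 4 months. The sum over 8 monocyte and neutrophil markers was 0.76 to 131 in KO and 64.2 to 273 in WT samples at 16 months. At 4 months it was 147 to 177 in KO and 24.4 to 89.9 in WT samples.

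Promoter sequence is shown for 3 of the genes: Acvr1c, the member whose level in KO microglia differed at 4 months, and Tgfbr1 and Smad3, a receptor and the Smad it phosphorylates, whose KO difference was larger at 16 months than at 4. Each is the 250 bases before the gene's start in RefSeq on GRCm38.p6, at chr2:58357759-58358008 on the minus strand for Acvr1c, chr4:47352972-47353221 on the plus strand for Tgfbr1 and chr9:63757995-63758244 on the minus strand for Smad3. Capitals mark the GC box, GGGCGG or its reverse complement, a sequence known to be bound by Sp1.
Acvr1c: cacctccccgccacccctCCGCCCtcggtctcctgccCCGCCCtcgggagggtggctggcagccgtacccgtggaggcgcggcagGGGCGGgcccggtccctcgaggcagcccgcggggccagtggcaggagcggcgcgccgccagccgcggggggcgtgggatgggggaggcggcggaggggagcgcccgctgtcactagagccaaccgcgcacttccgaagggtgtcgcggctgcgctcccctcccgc
Tgfbr1: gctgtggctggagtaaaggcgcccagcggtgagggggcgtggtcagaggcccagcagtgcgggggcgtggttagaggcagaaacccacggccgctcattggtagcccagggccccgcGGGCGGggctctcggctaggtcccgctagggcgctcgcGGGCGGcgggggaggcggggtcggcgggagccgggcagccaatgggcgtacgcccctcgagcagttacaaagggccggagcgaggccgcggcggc
Smad3: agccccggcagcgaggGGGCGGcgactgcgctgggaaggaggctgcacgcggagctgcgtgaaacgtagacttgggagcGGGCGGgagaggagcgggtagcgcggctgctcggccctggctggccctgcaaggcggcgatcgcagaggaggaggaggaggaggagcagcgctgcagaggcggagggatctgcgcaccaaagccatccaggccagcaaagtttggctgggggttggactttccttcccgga
The promoter table matched 7 of the 10 genes, with 9 windows in all. The GC box, searched on both strands, was in 6 of these 9 windows and in 32.7% of 32851 windows of the same length. It occurred 3 times before Acvr1c, 2 times before Tgfbr1 and 2 times before Smad3 in the windows shown, whose GC content was 79.6%, 74.8% and 69.2%, against a median of 52.4% over all windows. CAGAC, the short core of the Smad binding element, was in 2 of the 9 windows, a second Tgfbr1 start and Tgfbr2, and in 42.2% of all windows, and none of the 3 windows shown holds it.

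At 16 months, 6 of the 10 genes were lower in KO than in WT microglia at an adjusted p under 0.05 in limma, and 0 were higher. Those 6 were Tgfbr1, Smad7, Smad3, Acvr1c, Acvr1 and Ski. The background was high: of 31920 features tested, 34.4% were called by the same rule, 15.2% lower and 19.3% higher, and 56.0% of the 10990 calls were higher. With the 75th percentile taken over probes above background on all arrays, 43.3% of the calls were higher. The median difference over the 10 genes was -1.45 on the log2 scale and that over all features 0.12. In 5 of the 10 genes all KO samples lay below all WT samples, which was so for 18.1% of features. In sorted cells measured in bulk, fewer cells of a type and less RNA per cell cannot be told apart. Markers of microglia and choroid plexus moved with this comparison: 9 of 12 microglia markers fell, with a median of -2.35, and 6 of 12 choroid plexus markers rose, with a median of 1.87. Of the other marker lists, 1 of 9 neuron markers rose and 2 fell, 3 of 8 astrocyte markers rose and 1 fell, 1 of 8 oligodendrocyte markers rose and 4 fell, 1 of 10 endothelial and mural markers rose and 2 fell, 2 of 8 monocyte and neutrophil markers rose and 0 fell, and 0 of 7 border macrophage markers passed. Although 2 of them rose, the monocyte and neutrophil markers had a median of -1.05. The part of other cells in the differences of the 10 genes was not tested.

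**Figure D1:**
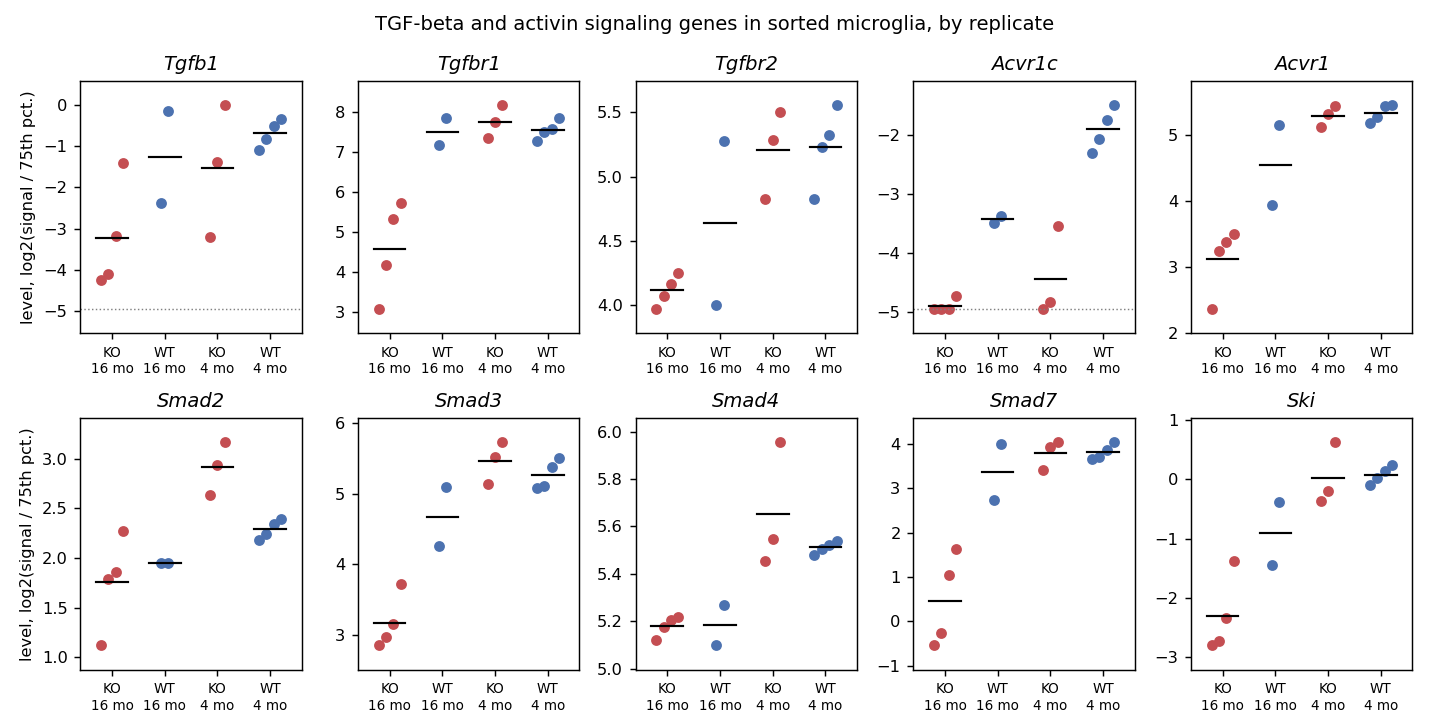
Level of each gene in every sample, log2 of signal over the array's 75th percentile, by age and genotype. Points are samples (WT at 16 months: means of matching arrays), bars are group means and the dotted line is the floor at -4.94. Tgfbr1, Acvr1c, Acvr1, Smad3 and Smad7 were lower in every KO sample than in every WT sample at 16 months, and Acvr1c also at 4 months.

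The ligand Tgfb1 had levels of -4.11, -1.41, -3.19 and -4.24 in KO samples at 16 months and of -2.39 and -0.15 in WT samples. The second KO sample stood above the lower WT sample, so the groups overlapped. The difference was -1.97 (SE 0.97, adjusted p = 0.142 in limma), with a 95% interval of -4.12 to 0.18. Without that KO sample it was -2.58 (adjusted p = 0.0455 in limma). At 4 months Tgfb1 was at -0.01, -3.20 and -1.38 in KO samples and at -1.08, -0.82, -0.35 and -0.52 in WT samples, an overlap with a wider spread among the KO samples. Its 10 spots on each array were averaged.

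Tgfbr1, the type I receptor that carries the TGF-beta signal, had the largest of the 10 differences at 16 months, just ahead of Smad7. Its levels were 4.19, 3.09, 5.33 and 5.74 in KO samples at 16 months, against 7.16 and 7.84 in WT samples. The highest KO sample lay well below the lower WT sample, a difference of -2.91 (SE 0.61, adjusted p = 0.00473 in limma), or 7.52-fold. At 4 months the samples overlapped, at 7.34, 8.16 and 7.74 in KO and 7.84, 7.56, 7.28 and 7.48 in WT, with a difference of 0.20 and a 95% interval of -0.99 to 1.39. The other Tgfbr1 probe was also lower in KO at 16 months, by -1.89 (SE 0.60, adjusted p = 0.0354 in limma over all probes, of which 12.8% were lower), and was above background on 1 of 4 KO arrays and 4 of 4 WT arrays.

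Tgfbr2, the type II receptor that binds the ligand, did not pass. It lay at 3.97, 4.07, 4.16 and 4.25 in KO samples at 16 months and at 4.00 and 5.28 in WT samples. The 4 KO samples sat close together and beside the lower WT sample, so the difference of -0.53 (95% interval -1.27 to 0.22, adjusted p = 0.257 in limma) rests on the other WT sample. Set against that sample alone it was -1.16 (adjusted p = 0.0226 in limma), and against the lower one 0.11 (adjusted p = 0.863 in limma). At 4 months the range was 4.83 to 5.50 in KO and 4.82 to 5.55 in WT samples, with a difference of -0.028. The other Tgfbr2 probe lay at -3.76, -0.58, -1.85 and -2.12 in KO and at -1.27 and -0.41 in WT samples at 16 months, a difference of -1.24 (SE 0.68, adjusted p = 0.199 in limma over all probes).

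Acvr1c, a type I receptor for activin B, nodal and some growth and differentiation factors, was dim on these arrays and was the 1 member called at 4 months. Its levels there were -4.94, -3.54 and -4.82 in KO samples and -2.06, -1.74, -1.49 and -2.29 in WT samples. All KO samples lay below all WT samples, and the probe was above background on 2 of 3 KO arrays and 4 of 4 WT arrays. KO sample 1 was at the floor and KO sample 3 just above it, so the floor limits the size of the difference. The difference was -2.54 (SE 0.32, adjusted p = 0.0394 in limma), or 5.81-fold, where 0.0094% of all features were lower and 0.0157% higher by the same rule and 6.69% did not overlap in this direction. The direction held in 23 of 23 settings of the processing, the adjusted p stayed under 0.05 in 7 of them, and leaving out any one WT sample of 4 months, KO sample 1 or 3 of 4 months or any KO sample of 16 months raised it to 0.0589 to 0.139. The choroid plexus and the monocyte and neutrophil sums given above were higher in every KO than in every WT sample at this age, and so were the border macrophage sum, 5.33 to 9.01 in KO and 2.51 to 3.61 in WT samples, and the astrocyte sum, 39.7 to 44.2 in KO and 28.8 to 38.6 in WT samples. No single marker of these lists passed in limma, and their part was not tested. At 16 months Acvr1c was at the floor in 3 of 4 KO samples and at -4.73 in the other, against -3.48 and -3.36 in WT samples. That difference was -1.46 (SE 0.36, adjusted p = 0.0108 in limma), and the floor limits its size. It was -0.68 (adjusted p = 0.25) with normexp background correction, and its adjusted p was 0.0603 without the higher pair of WT arrays. WT microglia themselves held less signal at 16 than at 4 months, by -1.53 (SE 0.36, adjusted p = 0.0481 in limma), the 1 member called between ages in WT, where 1.7% of features were lower. In the fit over all probes its adjusted p was 0.0507. In WT microglia 11 of 12 choroid plexus markers and 5 of 7 border macrophage markers were also higher at 16 than at 4 months, with medians of 5.15 and 5.03, and their part was not tested. A second Acvr1c probe was above background on 5 of 15 arrays and overlapped between genotypes at 4 months, with a difference of 0.51 (SE 0.58, adjusted p = 1 in limma over all probes). At 16 months both WT samples of this probe were at the floor, so a lower KO level could not be seen there.

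Acvr1, a type I receptor used mainly by BMPs and also able to bind activin A, had levels of 3.37, 2.37, 3.50 and 3.25 in KO samples at 16 months, against 3.94 and 5.16 in WT samples. The groups did not overlap, and the lower WT sample was nearer to the highest KO sample than to the other WT sample. The difference was -1.43 (SE 0.36, adjusted p = 0.0124 in limma), or 2.70-fold. Without the higher WT sample it was -0.82 (adjusted p = 0.139 in limma). The other Acvr1 probe gave -0.28 (SE 0.35, adjusted p = 0.603 in limma over all probes), with overlapping samples. At 4 months Acvr1 ranged from 5.13 to 5.45 in KO and from 5.19 to 5.46 in WT samples.

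Of the receptor-regulated Smads, Smad3 fell and Smad2 did not pass. Smad3 was at 2.85, 2.96, 3.15 and 3.72 in KO samples at 16 months and at 4.26 and 5.10 in WT samples. Every KO sample was below both WT samples, with a difference of -1.51 (SE 0.31, adjusted p = 0.00422 in limma), or 2.84-fold. Its other probe varied over more than 3 log2 units within the KO group, from -4.59 to -0.80, and gave 1.51 with an SE of 1.31 (adjusted p = 0.435 in limma over all probes). Smad2 was at 1.86, 2.28, 1.79 and 1.12 in KO and at 1.95 and 1.95 in WT samples at 16 months, a difference of -0.19 (95% interval -0.80 to 0.43, adjusted p = 0.653 in limma). At 4 months Smad2 was at 2.63, 3.17 and 2.94 in KO samples, against 2.18, 2.34, 2.39 and 2.24 in WT samples. All 3 KO samples were above all 4 WT samples there, as for 4.98% of features, but the difference of 0.63 (SE 0.24) had an adjusted p of 0.734 in limma.

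Smad4, the shared partner of all receptor-regulated Smads, did not pass on the probe with its highest mean. It lay between 5.12 and 5.22 in KO samples and at 5.10 and 5.27 in WT samples at 16 months, a difference of -0.0033 (SE 0.17) with a 95% interval of -0.37 to 0.36. Quantile normalization turned this into -0.65 (adjusted p = 0.0142 in limma). Its other probe rose: 4.06, 3.13, 2.84 and 3.77 in KO samples, against 1.28 and 2.44 in WT samples. These groups did not overlap, and the difference was 1.59 (SE 0.38, adjusted p = 0.0105 in limma over all probes, of which 17.4% were higher). At 4 months the other probe of Tgfbr1 differed by -0.84 (adjusted p = 0.957), that of Tgfbr2 by 0.13, that of Acvr1 by 0.11, that of Smad3 by -0.86 and that of Smad4 by 0.040 (adjusted p = 1 each in limma over all probes), all with overlapping samples. With 1 Smad4 probe rising at 16 months and the other at -0.0033, the array gives no single answer for Smad4, and which transcripts each probe reads was not tested.

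**Figure D2:**
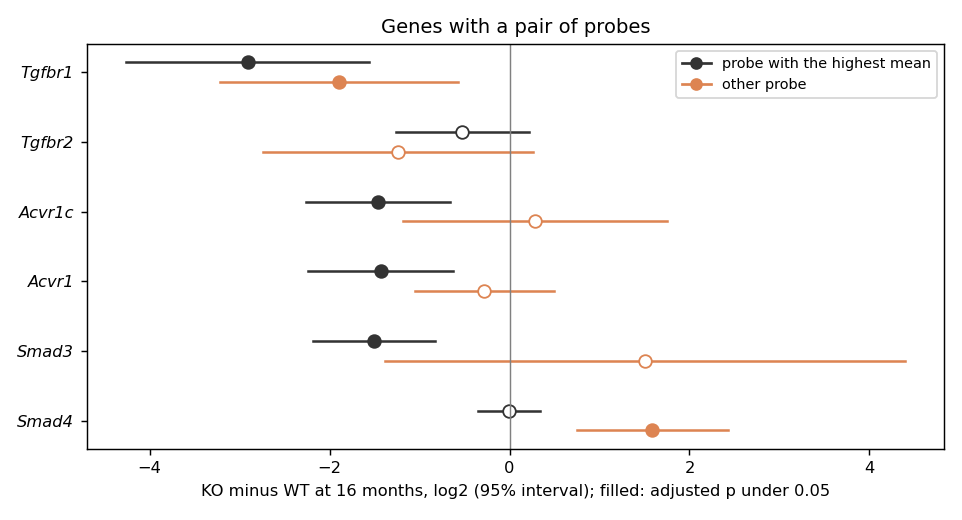
KO minus WT difference at 16 months on the log2 scale for the 6 genes with 2 probes, with 95% intervals from the fit over all probes. Dark points are the probe with the highest mean and orange points the other probe. Both Tgfbr1 probes were lower in KO, and the Smad4 probes differed, at -0.0033 and 1.59.

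The inhibitors fell in KO microglia at 16 months. Smad7, which recruits ubiquitin ligases to the activated receptor and is induced by TGF-beta, had levels of 1.04, -0.25, 1.63 and -0.54 in KO samples, against 2.74 and 4.00 in WT samples. The groups were more than 1 log2 unit apart at their nearest samples, and the difference was -2.90 (SE 0.57, adjusted p = 0.00348 in limma), or 7.45-fold. Ski, a repressor that binds Smads on DNA, was at -2.72, -1.38, -2.34 and -2.80 in KO and at -1.44 and -0.38 in WT samples. The second KO sample was level with the lower WT sample. Ski differed by -1.40 (SE 0.44, adjusted p = 0.0303 in limma), and with the lower WT sample alone by -0.87 (adjusted p = 0.26 in limma). Its adjusted p was also 0.0546 to 0.0645 in limma when KO sample 1, 3 or 4 was left out. With a replicate block, which set samples 1 and 2 apart from samples 3 and 4, it was 0.0907. At 4 months the samples of both genes overlapped between genotypes, with differences of -0.024 (95% interval -1.14 to 1.09) for Smad7 and -0.054 (95% interval -0.91 to 0.80) for Ski.

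Where the KO difference was tested between the ages, 3 of the 10 genes were called, all with a larger decrease at 16 months, and 6.48% of all features were lower by this rule. The KO difference at 16 months minus that at 4 months was -1.70 for Smad3 (SE 0.41, adjusted p = 0.0231 in limma), -3.11 for Tgfbr1 (SE 0.81, adjusted p = 0.0313) and -2.87 for Smad7 (SE 0.76, adjusted p = 0.0328). The Smad3 call was lost without KO sample 3 of 4 months (adjusted p = 0.0571) or the higher WT sample of 16 months (adjusted p = 0.0708), and the median over its probes gave 0.33 (adjusted p = 0.842), since its other probe went the other way at 2.36 (SE 1.74, adjusted p = 0.417 in limma over all probes). The Tgfbr1 and Smad7 calls were each lost without any one of 8 samples (adjusted p up to 0.0916 and 0.112). With a replicate block the adjusted p for Smad7 was 0.122 in limma. The other Tgfbr1 probe gave -1.05 (SE 0.79, adjusted p = 0.43 in limma over all probes). The Tgfbr1 call between ages thus rests on the probe with its highest mean. Acvr1 had -1.39 (SE 0.49, adjusted p = 0.0859 in limma) and Ski -1.35 (SE 0.58, adjusted p = 0.148). Acvr1c went the other way, with 1.07 (SE 0.48, adjusted p = 0.163 in limma), a value limited by the floor at both ages. Tgfb1, Tgfbr2, Smad2 and Smad4 had adjusted p-values of 0.167 to 0.701. Each of these comparisons holds age together with slide and, per the file headers, with a detrending step of the scanner software that was fitted on the 4-month arrays and not on the 16-month arrays.

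**Figure D3:**
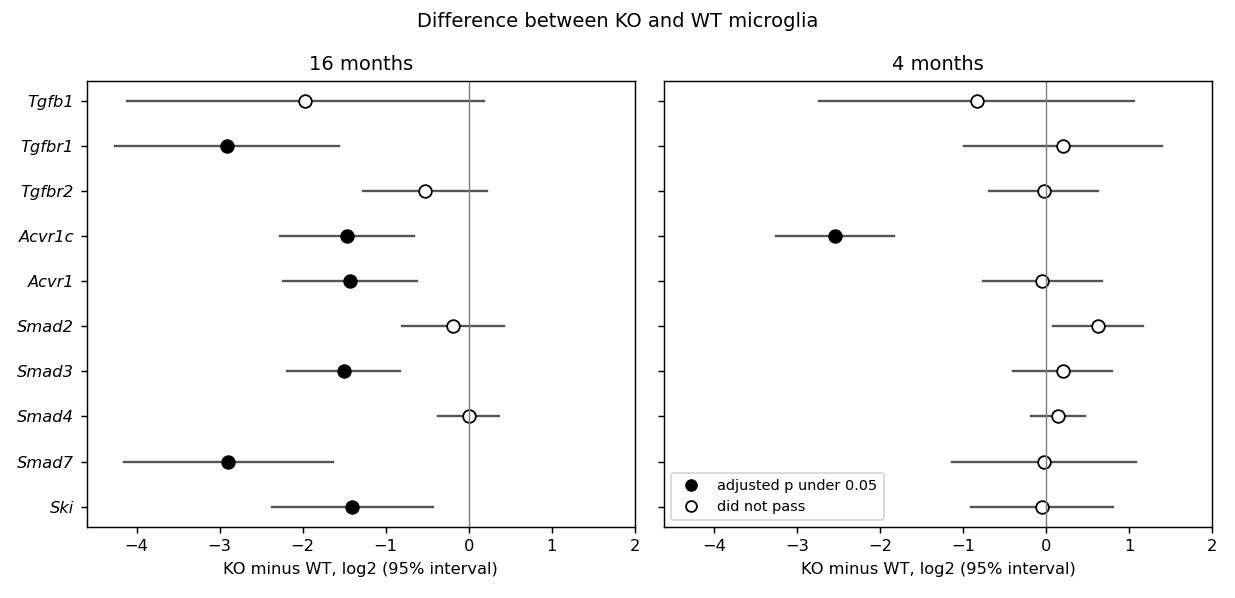
KO minus WT difference of each gene on the log2 scale at 16 months (left) and 4 months (right). Bars are 95% intervals and filled points passed an adjusted p of 0.05. At 16 months 6 of the 10 passed, from -2.91 for Tgfbr1 to -1.40 for Ski, and at 4 months Acvr1c alone among them passed, at -2.54.

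The 16-month calls rest on 2 WT samples and on a spread shared with the 4-month groups, and without the higher of these WT samples (arrays 3 and 4) 3 of the 10 genes were called lower, where 12.9% of all features were. With 16-month arrays fitted alone, 1 of the 6 calls, that of Acvr1c, passed, where 5.34% of all features were called lower. Most KO samples of Acvr1c were at the floor, which limited their spread (SD 0.11, n = 4) and so bears on this pass. In that fit the adjusted p was 0.0901 for Tgfbr1, 0.0825 for Smad7, 0.0661 for Smad3, 0.129 for Acvr1 and 0.156 for Ski in limma.

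The rest of the pathway is given by list at 16 months, to be read beside the 19.3% of all features that were higher and the 15.2% that were lower. Among 11 other ligands tested, 4 rose and 1 fell, with a median of 1.69. Those higher in KO microglia were Bmp6 (3.61), Bmp4 (2.85), Tgfb2 (2.71) and Gdf15 (2.57), and the one lower was Inhba (-2.49), which encodes the subunit of activin A and was above background on 1 of 4 KO arrays. Tgfb2, a second TGF-beta isoform, ranged from 5.20 to 6.18 in KO and from 1.66 to 4.17 in WT samples. Choroid plexus markers, whose sums moved the same way, are given above. Their part in these ligands, and in the genes that rose in the lists below, was not tested.

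The next list holds 14 tested genes that keep TGF-beta in its latent form, release it or trap ligands of the family. Of these, 2 rose and 2 fell, a smaller share than among all features, with a median of -0.20. Nrros, which tethers latent TGF-beta on microglia, averaged 2.25 ± 1.17 in KO samples (SD, n = 4) and 5.63 ± 0.39 in WT samples (SD, n = 2), a difference of -3.38 (adjusted p = 0.00171 in limma). Furin, a protease that cleaves the TGF-beta precursor, fell by 3.18. Ltbp3, a latent TGF-beta binding protein, rose by 3.01, and Itgb8, a subunit of an integrin that activates latent TGF-beta, was above background on 4 of 4 KO arrays and 1 of 4 WT arrays, at -0.80 to 1.83 in KO samples and at the floor in both WT samples. The KO difference of all 4 also differed between ages (adjusted p of 0.00418 to 0.038 in limma), by -3.21 for Nrros, -3.36 for Furin and 2.02 for Ltbp3. For Itgb8 the samples of the other groups were all at the floor, so no size is given. The floor limited their spread and so bears on its adjusted p.

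Of 10 other receptors and co-receptors, 2 rose and 1 fell, also near the shares of all features, with a median of -0.42. Bmpr1b, a BMP type I receptor, was above background on 4 of 4 KO arrays and 0 of 4 WT arrays, so it was at least 16.2-fold higher in KO microglia (adjusted p = 0.00112 in limma), the KO mean set against the floor, which no WT sample exceeded. Bmpr1a, its close relative, rose by 2.98, and Eng, a co-receptor for TGF-beta known from endothelium and macrophages, fell by 3.69. Bmpr1a lay between 2.87 and 4.24 in KO samples and at -1.09 and 2.65 in WT samples. The size of its difference therefore rests largely on the lower WT sample. Bmpr1b also differed between ages (adjusted p = 0.0126 in limma). Its KO samples at 4 months and WT samples at 16 months were all at the floor. Its WT samples at 4 months reached no higher than -4.57. The floor limited the spread of these groups and so bears on both adjusted p-values of Bmpr1b. Choroid plexus sums were also higher in KO samples at 16 months, and their part in Bmpr1b and Bmpr1a was not tested.

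Among 16 other Smads and regulators, 4 rose and 3 fell, shares near those of all features, with a median of 0.41. Pmepa1, which keeps Smads from the receptor, fell by 2.92, the corepressor Tgif1 by 2.71, and Skil, the relative of Ski, by 2.58. Those that rose include Foxh1, a nuclear partner of Smad2 (2.11), Smurf1, a ubiquitin ligase that works with Smad7 (1.95), Smad9, a BMP-regulated Smad (1.90), and Dab2, an adaptor protein (1.46). The KO difference of Pmepa1, Tgif1, Skil and Foxh1 also differed between ages (adjusted p of 0.00772 to 0.035 in limma).

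Genes known to be induced by TGF-beta family ligands also split. Of 15 tested, 6 fell and 4 rose, with a median of -0.76, and Smad7, Ski, Skil and Pmepa1 stand in this list as well as in those above. Tgfbi fell by 2.24. Id3 rose by 4.75, Id1 by 3.02, Bhlhe40 by 2.15 and Id2 by 0.98, and the Id genes are targets of BMP receptors and Smad1, Smad5 and Smad9 above all. Id3 lay between 4.44 and 6.61 in KO samples and at 0.17 and 1.54 in WT samples. For Id1 (adjusted p = 0.0368 in limma) and Bhlhe40 (adjusted p = 0.0438 in limma) the KO and WT samples overlapped. Id1 lay between 4.71 and 7.41 in KO samples and at 1.31 and 5.13 in WT samples.

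Genes that microglia are known to need TGF-beta to express fell together at 16 months. Of 10 tested, 9 were lower in KO microglia and 0 higher, with a median of -3.20, and the list shares genes with the microglia markers, Tmem119, Siglech, P2ry12 and Fcrls among them. Slc2a5, a fructose transporter, fell by 5.42, Olfml3 by 4.24, the transcription factor Sall1 by 3.87, Tmem119 by 3.77 and Gpr34 by 3.29. Tmem119 lay between 1.83 and 3.91 in KO samples and at 6.26 and 7.65 in WT samples. The summed level of all microglia markers, given above, moved with these genes, and its part was not tested. For Tmem119, Siglech, Mertk and Sall1 the KO difference also differed between ages (adjusted p of 0.00939 to 0.0498 in limma). At 4 months no gene of these 6 lists passed in limma, where 8 features of 31920 did, or 0.0251%, and 6.05% had an unadjusted p under 0.05.

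**Figure D4:**
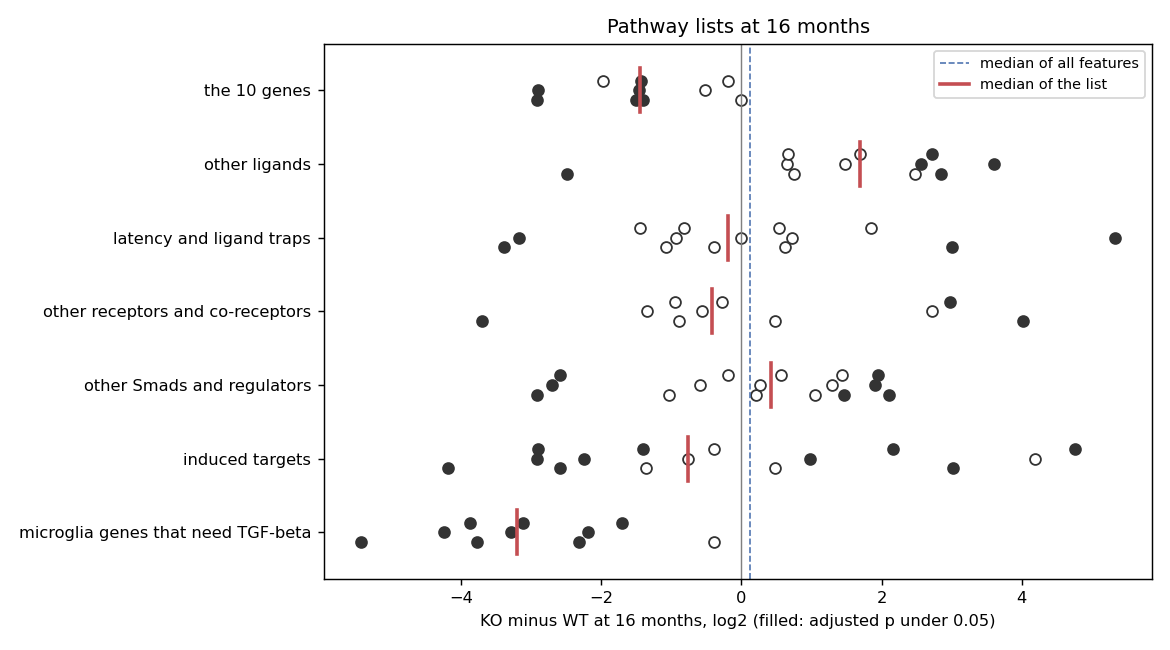
KO minus WT difference at 16 months, log2, for every tested gene of each list. Filled points passed an adjusted p of 0.05, red bars are list medians and the dashed line is the median of all features at 0.12. The microglia genes that need TGF-beta lie to the left, with a median of -3.20, and other ligands to the right, with a median of 1.69.

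By Pearson correlation of level over the 13 samples, the named genes most like Acvr1c were Scd4 (0.969), a fatty acid desaturase, Grn itself (0.909) and Adamts17 (0.882). Those most like Tgfbr1 were Sall1 (0.990), Arhgap11a (0.989) and Gpr34 (0.989). These values describe how samples of 4 groups line up, and group differences, array depth and slide all enter them.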

How the data were processed

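The arrays were single-color Agilent arrays of design 028005, read with Feature Extraction 10.7.3.1 per the file headers, and R 2.15.3 is named in the submitters' processing notes. The deposited intensity is the processed signal of a spot, background-subtracted by the scanner software per the file headers, which also record a multiplicative detrending fit on the 4-month arrays and none on the 16-month arrays. Spot flags and the median spot signal and background of the deposited intensity files were used for filters and for 1 alternative. The bead array table, an intensity and a detection p-value per probe, was not analysed here.

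From these, each array's signal was divided by its 75th percentile over all non-control spots, floored at 0.0325 times that percentile and log2-transformed. Repeat spots were averaged without outlier spots. Probes well above background on at least 3 of 15 arrays were kept (45606 of 55681), and the probe with the highest mean stood for each gene (31920 features, 17792 with a symbol). Probe identifiers were matched to RefSeq transcripts to give gene symbols, and Ctgf of the gene lists was found under its current symbol, Ccn2. limma 3.58.1 in R 4.3.3 fitted a mean per group over 13 samples, with two-sided moderated tests and Benjamini-Hochberg adjustment over all features at 0.05. A second fit held all 45606 probes. The fit was tested on simulated data. Where no array of 1 group was well above background, a fold bound sets the mean of the other group against that group's mean.

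The scaled median absolute log2 difference was 0.124 between arrays 1 and 2 of WT microglia at 16 months, 0.0954 between arrays 3 and 4, and 0.382 or more for other pairs, and repeat spots had an SD of 0.128 to 0.267. They were averaged as 2 samples. The labels give the arrays of an age shared replicate numbers. At 4 months deviations of the 3 pairs with the same number correlated at -0.0428 to -0.0351, so the numbers do not pair those samples. At 16 months the 4 pairs correlated at 0.115 to 0.122, but the WT arrays there stand for 2 samples. The replicate block was the replicate number at 4 months. At 16 months it set numbers 1 and 2 in 1 block and numbers 3 and 4 in another, after the matching WT arrays. The unblocked fit was kept as reported, and blocked values stand beside calls of 16-month results that the block ended.

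The 10 genes and the pathway and marker lists were chosen with earlier results of these data known, so no list is independent evidence. All 10 genes are given at every probe. From each other pathway list, up to 5 genes with the largest difference among those passing at 16 months are named, plus those passing at 4 months or between ages. Id2, Bhlhe40, Tgfbi, Smad9 and Dab2 were named after their values were seen, and some genes of the lists are counted but not reported here by name. Inhbb, Mstn, Bambi and Slc17a7 did not pass the filter and Ly6c2 and Ly6g were not matched. The alternatives were quantile normalization, a 75th percentile over probes above background on all arrays, normexp (offset 50) on median spot signals in place of the mean signals first planned, which the files used here do not hold, other filters and probe rules, arrays of 1 age alone, every array as a sample, a replicate block, and leaving out each sample. A floor of each array's own was added after seeing the data.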

Additional observations from a re-analysis of the deposited data

Results flagged for a closer look

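Of 32 sets of 4 samples of 1 group on 1 probe examined for a sample far from the others, 4 held one, where chance gives about 1 in 20. A second Tgfbr1 probe stood at -4.10 in KO sample 3 at 16 months while the other 3 KO samples were at the floor of -4.94. The probe used for Acvr1c stood at -4.73 in KO sample 4 at 16 months, with the other 3 KO samples at the floor, and the second Acvr1c probe stood at -3.82 in KO sample 1 with the other 3 at the floor. In these sets a single array above background is enough to set a sample apart. The second Acvr1 probe was at 0.30 in WT sample 2 at 4 months, against 0.50 to 0.53 in the other WT samples, a gap that is small on the log2 scale.

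On the probe with the highest mean of each gene, the KO difference differed between ages for Smad3 (-1.70), Tgfbr1 (-3.11) and Smad7 (-2.87). The test of that difference in limma is given above. The slide changes with age in these data and the effects of these cannot be told apart.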

How the results depend on the processing

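At 16 months 6 genes were called lower in limma, 1 with 16-month arrays alone, 3 with the median over a gene's probes and 3 to 7 when single samples were left out, and 1 rather than 0 was called higher with the median over probes (Smad4). At 4 months the 1 call was 0 with 4-month arrays alone, each array's own floor, the median over probes, normexp, quantile normalization, the replicate block and the all-array filter, which removes Acvr1c before the fit, and 0 to 1 with single samples left out. Between ages the 3 calls were 1 with the median over probes and 0 to 4 with single samples left out, and genes called higher were 0 to 1. Features called at 16 months numbered 10990, 3461 with that age alone and 7785 to 11906 with single samples left out. Those at 4 months numbered 8, 26 with that age alone, 16 with every array as a sample, 4 with normexp, 0 with the all-array filter, 2 with quantile normalization, 1 with the replicate block and 1 to 92 with single samples left out, where 92 came without either WT sample of 16 months. At 4 months under the all-array filter no gene passed, and 1931 features had an unadjusted p under 0.05 in the reported fit. Between ages 4237 were called, 6786 with every array as a sample, 1956 with the replicate block and 2434 to 5641 with single samples left out.

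Signs changed for differences that had not passed, and for Smad3 between ages. With the median over probes, the values were 0.030 for Acvr1, -0.33 for Smad3, -0.32 for Tgfbr1 and 0.053 for Tgfbr2 at 4 months, 0.79 for Smad4 at 16 months (adjusted p = 0.0271), and 0.33 for Smad3 and 0.70 for Smad4 between ages, and Smad3 at 16 months was -0.00052. This setting mixes a bright and a dim probe. Normexp gave 0.0021 for Acvr1 and 0.050 for Tgfbr2 at 4 months, and the replicate block 0.0026 for Tgfbr2. Leaving out single samples spanned, at 4 months, -0.121 to 0.041 for Acvr1, -0.357 to 0.136 for Ski (0.058 without KO sample 1), -0.012 to 0.240 for Smad4, -0.147 to 0.167 for Smad7 (0.050 without WT sample 1), -0.0035 to 0.407 for Tgfbr1 and -0.176 to 0.160 for Tgfbr2 (0.079 and 0.0026 without WT sample 3 or 4). At 16 months it spanned -0.359 to 0.027 for Smad2, and gave -0.016, 0.016 and 0.082 for Smad4 and 0.111 for Tgfbr2. Between ages it spanned -0.243 to 0.0086 for Smad4 and reached 0.139 for Tgfbr2. Apart from the causes named, the cause was not tested. With the replicate block, Ski at 16 months (adjusted p = 0.0907), Acvr1c at 4 months (0.22) and Smad7 between ages (0.122) lost their calls and no other call of the 10 genes was lost. At 16 months Tgfbr1 and Smad7 passed in 23 of 24 settings, Smad3 in 22, Acvr1 in 21, Acvr1c in 20 of 23 and Ski in 18 of 24, all with KO lower. The median over all features at 16 months was 0.12 as reported, 0.45 with normexp and 0.48 with the all-array filter. Dim probes such as those of Acvr1c are limited by the floor.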
